A study of Mus musculus with 3 samples.

Results

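Pre-B and immature B cells of the mouse meninges were taken from a single-cell RNA sequencing experiment on chronic social defeat (CSD) stress, a procedure in which a male mouse is repeatedly exposed to an aggressor. Cells were chosen by rule. A droplet barcode counted as a cell with at least 500 unique molecular identifiers (UMIs, the distinct RNA molecules read), 174 to 4548 genes and under 8.3% of UMIs from mitochondrial genes. Of these, cells were kept with at least 2 UMIs and at least 0.15% of UMIs from *Cd79a* and *Cd79b*, which encode the signalling chains of the B cell receptor. They also had to hold under 0.15% of UMIs from *Vpreb1*, *Igll1* and *Dntt*, which mark the earlier pro-B stage, and under 1.5% from the MHC class II genes *H2-Aa*, *H2-Ab1*, *H2-Eb1* and *Cd74*, which mark the mature stage. The rule found 457 cells of 7057.

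The experiment held 3 libraries, each a pool of meninges from 4 male C57BL/6J mice aged 10 to 12 weeks. HC replicate 1 and HC replicate 2 came from unstressed home cage mice, and CSD replicate 1 came from mice after 14 days of defeat that were classed as stress-susceptible by behavioural tests that included urine scent marking and the open field. Meninges were picked from the brain surface and from the inner skull, with care to keep skull bone marrow out. Whether some of the cells were marrow cells carried over was not tested. Cells were sorted as alive by DAPI, nucleated by DRAQ5 and single, and the pools shared a droplet chip with a lane for each. Where 3 values stand together without names, HC replicate 1 comes first, HC replicate 2 second and CSD replicate 1 last. The cells of the rule numbered 138, 163 and 156, and no barcode was shared between libraries among them.

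B cells arise in bone marrow from pro-B cells, which cut and join the gene segments of the antibody heavy chain. A finished heavy chain pairs with the surrogate light chain encoded by *Vpreb1* and *Igll1* to form the pre-B cell receptor, upon which large pre-B cells divide and then come to rest as small pre-B cells. Small pre-B cells rearrange a light chain gene with the RAG1 and RAG2 recombinase, and a cell that shows a complete receptor on its surface is an immature B cell. MHC class II, the low-affinity receptor for IgE (*Fcer2a*) and complement receptor 2 (*Cr2*) become abundant later, as the cell matures. B cell precursors are also known from the dura mater, which lies against the skull and its marrow.

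The promoters of the marker genes are shown because the levels of these genes separate the B cell stages described below. Bases upstream of the RefSeq start site (build GRCm38.p6) are written 5′ to 3′ on the gene's strand, with capitals for a match to the E-box CAGGTG, bound by E proteins such as TCF3, or to the octamer ATGCAAAT, bound by POU2F1 and POU2F2, on either strand. The *Cd79a* stretch (chr7:24897247-24897380, plus strand) ends where the first exon begins in the annotation, at base -117 from the RefSeq start. The *Vpreb3* stretch (chr10:75948050-75948299, plus strand) lies within the annotated gene span but outside its exons, and the *Rag1* stretch (chr2:101649533-101649782, minus strand) lies just upstream of the gene.
Cd79a: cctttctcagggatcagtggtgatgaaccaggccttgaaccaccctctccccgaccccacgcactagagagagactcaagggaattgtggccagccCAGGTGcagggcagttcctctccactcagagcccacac
Vpreb3: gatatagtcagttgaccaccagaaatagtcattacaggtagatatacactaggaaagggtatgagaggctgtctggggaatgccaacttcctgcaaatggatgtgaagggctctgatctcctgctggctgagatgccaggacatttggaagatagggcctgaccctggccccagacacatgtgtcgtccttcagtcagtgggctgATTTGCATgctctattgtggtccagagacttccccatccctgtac
Rag1: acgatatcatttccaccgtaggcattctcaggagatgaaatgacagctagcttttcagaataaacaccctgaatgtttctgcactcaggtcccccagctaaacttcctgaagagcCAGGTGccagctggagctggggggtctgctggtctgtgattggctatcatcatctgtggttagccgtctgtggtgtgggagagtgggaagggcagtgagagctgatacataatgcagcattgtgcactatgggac
The E-box stood at bases -154 to -149 from the start of *Cd79a* and at -135 to -130 from that of *Rag1*, and the octamer, as its reverse complement, at -45 to -38 from that of *Vpreb3*. Across 32851 windows of 250 bases upstream of all RefSeq starts, 17.2% held CAGGTG and 1.60% held ATGCAAAT. Counted by gene, 19.4% of 27025 genes had CAGGTG and 1.81% had ATGCAAAT. Of 20 B cell identity genes, 12 had a window, and among these CAGGTG occurred in 6 and ATGCAAAT in 1 (*Blnk*). CAGGTG occurred in 1 of 11 recombination genes with a window (*Rag1*) and in 3 of 21 such transcription factor genes, and ATGCAAAT in 0 of either list. These are matches of letters only. For *Dnajc7* (chr11:100582818-100620168, minus strand) the 250 bases upstream of one annotated start (chr11:100613353-100613602) held neither motif and are not printed. *Cd79b* (chr11:106311341-106314762, minus strand) is named without a sequence.

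The deposited counts differed in depth and in free RNA between libraries. Total depth was 9891861, 8814690 and 10206236 UMIs in the 3 libraries, and the share of UMIs lying in barcodes of 1 to 100 UMIs, which are mostly empty droplets, was 7.87%, 24.1% and 5.48%. HC replicate 2 thus stood apart from the other libraries in this share, which does not measure the free RNA within cells. The cells of the rule had a median of 1687, 1711 and 1396.5 UMIs and of 815, 866 and 709 genes, with CSD replicate 1 the shallowest. Their summed counts were 303156, 408186 and 300917 UMIs, over which a count of 3 UMIs in all 3 libraries, the limit that a count of 0 allows, corresponds to 2.96 CPM, the count scaled to the same total in every gate and library. Intervals and limits here cover counting error only.

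Levels below are CPM of the UMIs summed over a gate in each library and compare a gene with itself across gates. The pro-B gate held the Cd79 cells over the limit on *Vpreb1*, *Igll1* and *Dntt* (20, 14 and 31 cells), and the mature B gate held the other Cd79 cells at or over the limit on MHC class II (152, 154 and 126 cells). T and NK cells without a Cd79 UMI (147, 79 and 199 cells) and empty droplets gave the background. Because the gates were cut on genes of these same cells, differences between gates are descriptions and carry no test.

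The markers of the label that the rule did not use are described next. Members and markers were chosen with earlier results of these data known, so these levels do not test the label. *Vpreb3*, which encodes a protein that associates with the heavy chain in precursor B cells, stood at 3691, 3337 and 4097 CPM, near its pro-B level of 3492, 4035 and 4807 CPM. Mature B cells had 806, 907 and 924 CPM, and T and NK cells 80.1, 79.1 and 35.0 CPM, so that only the precursor gates overlapped with each other. *Dnajc7*, which encodes a DNAJ co-chaperone of HSP70 and HSP90, stood at 1949, 1957 and 1984 CPM against 385, 563 and 412 CPM in pro-B cells and 230, 353 and 326 CPM in mature B cells. Its level was therefore highest in the pre-B and immature gate in every library, and the spread over libraries was small beside the distance to the other gates.

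*Rag1* (chr2:101638282-101649501, minus strand), the catalytic subunit of the recombinase, was seen in 64 UMIs, with 75.9, 61.2 and 53.2 CPM. Mature B cells had 0 UMIs of *Rag1* in all 3 libraries, which allows up to 4.29 CPM over the gate, so the level of 63.2 CPM with the libraries pooled was at least 14.7-fold higher. Pro-B cells had 46.7, 19.4 and 55.6 CPM from few UMIs and overlapped with the pre-B and immature gate. A *Rag1* UMI was present in 14.5%, 12.9% and 8.97% of the cells, against 0%, 0% and 0.503% of T and NK cells, whose median depth of 2149, 2378 and 1993 UMIs was greater. After each cell was thinned to 500 UMIs, 3 cells in each library kept a *Rag1* UMI (2.17%, 1.84% and 1.92%), too few to show any order of the libraries at equal depth. *Rag2*, the partner subunit, rested on 16 UMIs at 13.2, 17.1 and 16.6 CPM and had no UMI in mature B cells. A *Rag2* UMI was more frequent in pro-B cells, at 10%, 21.4% and 16.1% against 2.90%, 4.29% and 1.92% of the cells of the rule. These were 2, 3 and 5 pro-B cells, whose median depth of 2975, 2508.5 and 1745 UMIs was greater. At 500 UMIs per cell, 0, 1 and 1 pro-B cells and 1, 0 and 1 cells of the rule kept a *Rag2* UMI.

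**Figure D1:**
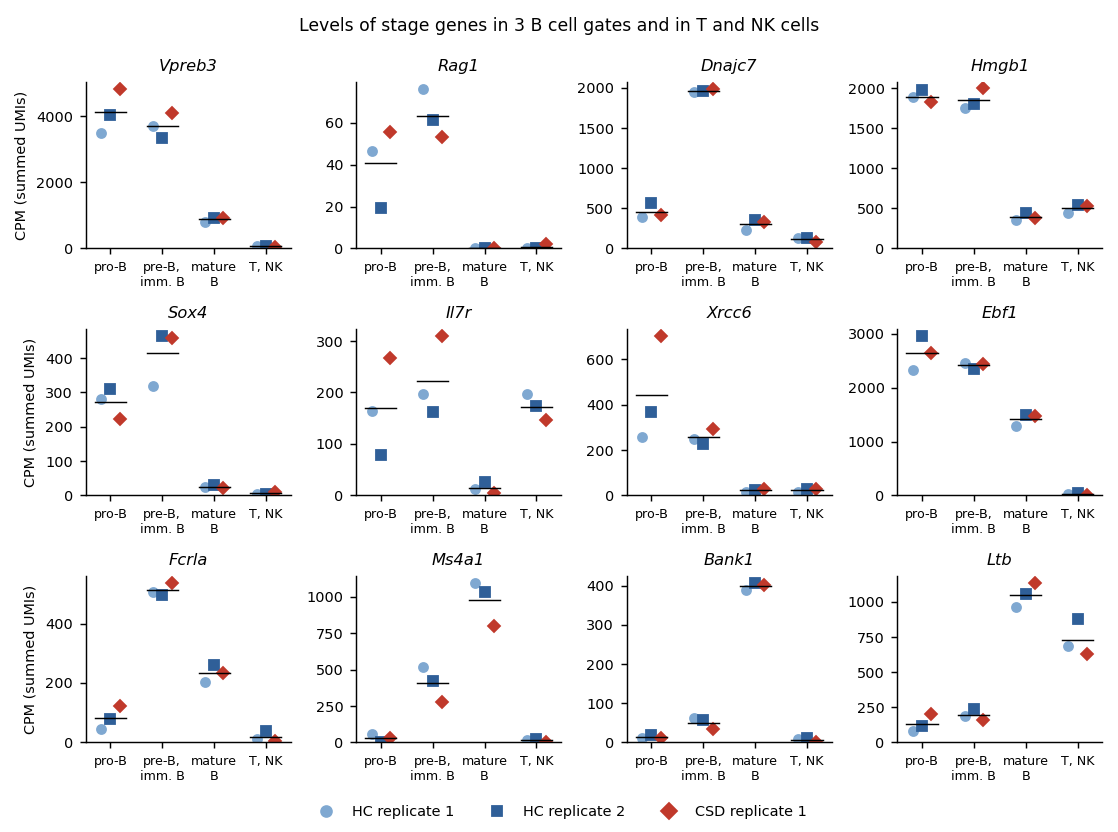
Level of 12 stage genes (CPM of UMIs summed per gate, linear axis from 0) in pro-B, pre-B and immature B, and mature B gates and in T and NK cells. Each symbol is 1 library and the line is the mean of 3 libraries; *Dnajc7* peaks in the pre-B and immature gate at 1949 to 1984 CPM, *Rag1* is at 0 in mature B cells, and *Ms4a1*, *Bank1* and *Ltb* are highest in mature B cells.

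Of 12 genes of V(D)J recombination and joining, 5 had at least 20 UMIs, *Rag1* and 4 others. *Xrcc6*, which encodes the Ku70 end-joining protein, stood at 251, 228 and 292 CPM against 15.9, 22.8 and 27.2 CPM in mature B cells. DNA ligase IV (*Lig4*) stood at 19.8, 22 and 29.9 CPM with 24 UMIs. The chromatin proteins *Hmgb1* and *Hmgb2*, which assist RAG cutting and are also abundant in dividing cells, stood at 1758, 1810 and 2004 CPM and at 2075, 2183 and 2143 CPM. In mature B cells the mean over 3 libraries was 396 CPM for *Hmgb1* and 254 CPM for *Hmgb2*. *Xrcc6*, *Hmgb1* and *Hmgb2* were thus higher in the pre-B and immature gate than in mature B cells. The 12 genes, led by *Hmgb2*, summed to 4222, 4388 and 4589 CPM here and to 4789, 4947 and 4506 CPM in pro-B cells. Their summed level was therefore not particular to the pre-B and immature gate.

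The surrogate light chain was low by construction, at 52.8, 66.1 and 49.8 CPM for *Vpreb1* and 29.7, 53.9 and 36.6 CPM for *Igll1*. T and NK cells had 5.53, 31.6 and 17.5 CPM of *Vpreb1* and 19.3, 36.9 and 6.57 CPM of *Igll1*, lower than the gate in each library, and empty droplets, which are all free RNA, held a mean of 63.0 and 65.7 CPM. Symbols for the constant regions of immunoglobulin chains (*Ighm*, *Ighd*, *Igkc*, *Iglc1* to *Iglc3*) were not analysed here, so heavy and light chain transcripts, which would separate pre-B from immature B cells most directly, do not enter this description.

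Receptor components and surface proteins of the B lineage were present in every library. *Cd79a* stood at 2009, 1953 and 1881 CPM and *Cd79b* at 2454, 2345 and 2582 CPM, values that chose the cells. *Ly6d*, a surface protein gained by B-committed progenitors, stood at 2527, 2411 and 2506 CPM against 444, 136 and 579 CPM in pro-B cells. *Fcrla*, an intracellular Fc receptor-like protein, stood at 505, 497 and 535 CPM, with a mean of 82.2 CPM in pro-B and 233 CPM in mature B cells. The heat-stable antigen *Cd24a* stood at 1112, 1110 and 970 CPM, higher in each library than in pro-B cells (572, 970 and 668 CPM) and in mature B cells (524, 368 and 375 CPM). *Cd93*, used in flow cytometry to mark immature B cells, stood at 56.1, 63.7 and 39.9 CPM and averaged 4.4 CPM in mature B cells. Pro-B cells held more of it in each library, at 117, 116 and 55.6 CPM.

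Transcription factors of B cell commitment were present at both precursor and mature stages, while others were restricted in level. *Ebf1*, which with *Pax5* fixes B cell identity, stood at 2464, 2342 and 2439 CPM against 1282, 1487 and 1472 CPM in mature B cells. *Pax5* stood at 165, 110 and 106 CPM, with a mature B mean of 146 CPM that lay inside that range. *Sox4*, a factor of early progenitors, stood at 320, 463 and 459 CPM against 23.8, 30.3 and 21.7 CPM in mature B cells. A *Sox4* UMI was present in 43.5%, 48.5% and 42.3% of the cells and in 45%, 57.1% and 48.4% of the deeper pro-B cells. *Myb*, needed for progenitor growth, stood at 59.4, 56.3 and 69.8 CPM, where mature B cells averaged 1.81 CPM. *Bach2* stood at 158, 176 and 216 CPM, *Irf4*, which promotes light chain rearrangement, at 79.2, 63.7 and 86.4 CPM, and *Spib* at 307, 272 and 219 CPM. Mature B cells averaged 58.2, 28.2 and 178 CPM of those 3 genes. *Lef1*, a target of early Wnt signalling, averaged 285 CPM in pro-B cells and rested on 21 UMIs in the pre-B and immature gate. *Klf2*, which holds lymphocytes at rest and drives their homing receptors, was lower at 693, 946 and 678 CPM than in mature B cells at 1116, 1946 and 1467 CPM within each library.

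Genes of the niche and of homing include the receptor of interleukin 7, the growth factor of B cell precursors. *Il7r* stood at 198, 162 and 309 CPM against 11.9, 26.6 and 5.43 CPM in mature B cells. An *Il7r* UMI was present in 25.4%, 27.6% and 37.2% of the cells and in 40%, 21.4% and 45.2% of pro-B cells, so it was not particular to this gate. T and NK cells, which also use this receptor, had 196, 174 and 147 CPM. *Selplg*, an adhesion ligand of leukocytes, stood at 162, 132 and 109.7 CPM, above the 83.4, 98.6 and 92.4 CPM of mature B cells and below the 403, 396 and 412 CPM of T and NK cells in each library. The egress receptor *S1pr1* stood at 33.0, 36.7 and 39.9 CPM, with mature B cells at a mean of 106 CPM. *Ccr7*, which guides cells into lymphoid tissue, stood at 82.5, 93.1 and 59.8 CPM with a mature mean of 181 CPM.

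Maturation genes were partly present. *Ms4a1*, which encodes CD20, stood at 521, 419 and 279 CPM, between pro-B cells at 58.4, 0 and 33.4 CPM and mature B cells at 1092, 1036 and 799 CPM. *Tnfrsf13c*, the receptor of the survival factor BAFF, stood at 234, 174 and 156 CPM with a mature mean of 346 CPM. *Fcer2a* stood at 16.5, 19.6 and 9.97 CPM against 139, 156 and 141 CPM, and *Cr2* at 0, 2.45 and 0 CPM against 63.5, 37.9 and 21.7 CPM. Of the survival genes, *Bcl2* stood at 29.7, 41.6 and 33.2 CPM with a mature mean of 96.1 CPM, and the kinase *Pim1* at 257, 439 and 359 CPM with a mature mean of 107 CPM. *Bcl2l1*, which encodes BCL-XL, stood at 26.4, 44.1 and 43.2 CPM with a mature mean of 9.46 CPM. In each library *Bcl2* was lower and *Bcl2l1* higher than in mature B cells.

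The genes that differed most between gates were ranked as a description by the mean log2 ratio of CPM, with 10 CPM added, over genes with at least 100 UMIs that the rule did not use. Above mature B cells, the 15 leading genes included *Hist1h2ap* (log2 ratio 3.93), *Nusap1* (3.38), *Hist1h1b* (3.37), *Cdca3* (3.19), *2810417H13Rik* (3.10), *Lockd* (3.09), *Hmgb2* (3.05) and *Rrm2* (3.01). The others were *Sox4* (3.57), the embryonic myosin light chain *Myl4* (3.54), the NF-κB adaptor *Tifa* (3.49), *Il7r* (3.28), the chromatin remodelling ATPase *Smarca4* (3.07), *Xrcc6* (3.07) and *Cecr2* (3.00). *Tifa* stood at 581, 720 and 605 CPM against 51.6, 41.7 and 48.9 CPM. *Myl4* stood at 452, 532 and 489 CPM against 23.8, 45.5 and 32.6 CPM.

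Below mature B cells, the 10 leading genes included *H2-DMb2* (-3.17), *H2-DMa* (-2.25) and *H2-Oa* (-2.28), which act on the peptides of class II molecules and need not be independent of the class II genes that set the gates. The others were *Gm43603* (-3.19), the adaptor *Bank1* (-2.79), *Fcer2a* (-2.63), *Tspan32* (-2.49), *Gimap6* (-2.41), *Ltb* (-2.38), which encodes lymphotoxin beta, and *Lmo2* (-2.25). Against pro-B cells the leading higher genes included *Ms4a1* (3.71), *Ly6d* (2.88), *Rnase6* (2.86), *Gm43291* (2.82), *Cd38* (2.64), *Cd2* (2.61), *Fcrla* (2.59), *Blvrb* (2.52) and *Spib* (2.52). The leading lower genes were *Bfsp2* (-2.74), *Gimap6* (-1.89), *Tbc1d10c* (-1.79), *Crip1* (-1.67), *Rcsd1* (-1.63), *Pmf1* (-1.54), *Fkbp1a* (-1.38), *Phgdh* (-1.31), *Hes1* (-1.30) and *Rasgrp2* (-1.28). The pro-B gate held 65 cells, so its single-library values rest on few UMIs.

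The limit on MHC class II cuts a continuous range. The cells nearest to it held 1.492% inside and 1.504% outside, with 29 cells inside and 20 outside within 20% of the limit. For the Cd79 limit the nearest values were 0.1503% and 0.1494%, with 29 and 38 cells, and for the surrogate light chain and *Dntt* limit 0.139% and 0.157%, with 1 and 4 cells. Cells just inside the class II limit (1 to 1.5%, 42 cells) had 1444 CPM of *Vpreb3* and 525 CPM of *Dnajc7*. Those just outside (1.5 to 2%, 52 cells) had 1578 and 556 CPM, so the limit did not fall where these genes step down.

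All Cd79 cells outside the pro-B gate were therefore ordered by their class II share, and the step was found lower. *Dnajc7* pooled over libraries was 2272 CPM below 0.25% (199 cells), 2200 CPM from 0.25 to 0.5% (156 cells) and 1837 CPM from 0.5 to 0.75% (36 cells), and then 658 CPM from 0.75 to 1% (24 cells). It went on to 284 CPM from 2 to 3% and 244 CPM at 3% or more. *Sox4* followed the same course, with 461, 465 and 640 CPM in the first 3 ranges and 101 CPM in the fourth. *Vpreb3* passed from 3524 to 2158 CPM and *Ebf1* from 2300 to 1147 CPM at the same place with the libraries pooled. In HC replicate 1 *Dnajc7* passed from 2152 to 695 CPM there and in HC replicate 2 from 1784 to 453 CPM, while in CSD replicate 1 the ranges held 6 and 5 cells with 1195 and 1031 CPM. In those few CSD cells *Vpreb3* went the other way, from 1434 to 4381 CPM, and *Ebf1* stood at 1833 and 1804 CPM, so the step of these genes rested on the HC libraries.

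Other genes did not step at that place. *Hmgb1* was 2037 CPM from 0.25 to 0.5% and 953 CPM from 0.5 to 0.75%. *Ms4a1* was 92.3 CPM below 0.25%, 296 CPM in the second range and 1089 CPM in the third, a level close to the 1037 CPM of mature cells at 2 to 3%. The sum over the 36 cells from 0.5 to 0.75% thus held high *Dnajc7* and *Sox4* beside high *Ms4a1*, which does not tell whether single cells held them together. *Bank1* and *Ltb* were spread over the whole range, *Bank1* at 9.23, 45.1, 81.6, 152, 186, 352 and 416 CPM in the first 7 ranges and *Ltb* at 89.96, 135, 245, 422, 787, 829 and 1075 CPM. *Fcer2a* had 1, 2, 0 and 1 UMIs in the ranges below 1% and 131 CPM from 1 to 1.5%. *Rag1* was 69.2 CPM below 0.25%, 81.8 CPM from 0.25 to 0.5%, 40.8 CPM from 0.5 to 0.75% on 3 UMIs, and had no UMI at or over 1.5%.

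**Figure D2:**
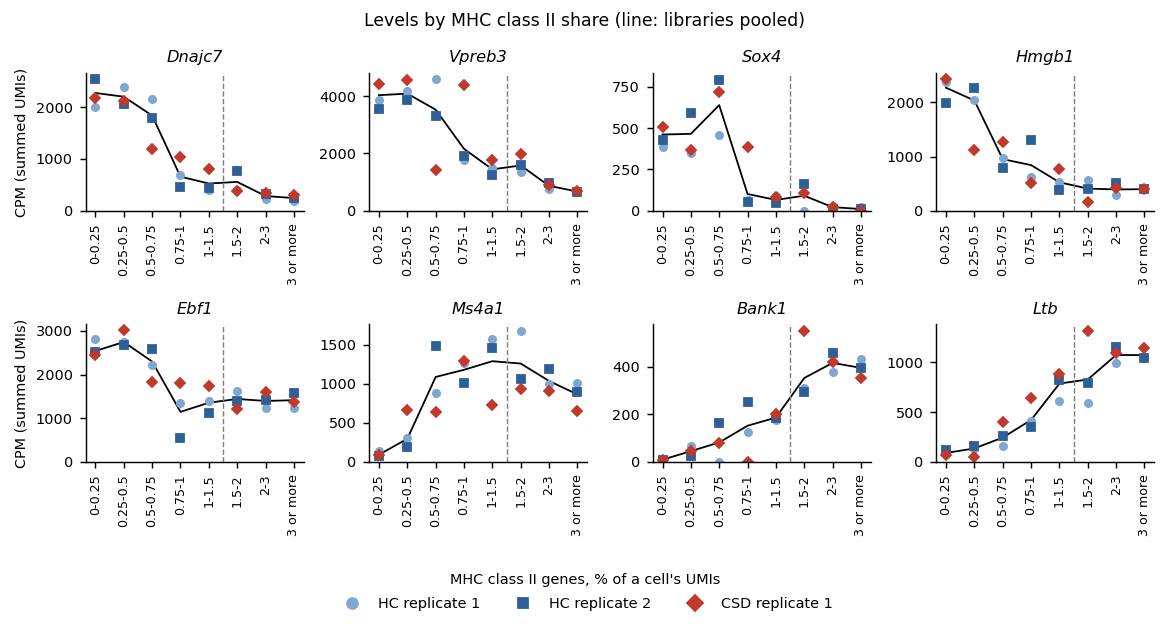
Level of 8 genes (CPM of summed UMIs, linear axis from 0) in Cd79 cells outside the pro-B gate, grouped by the share of a cell's UMIs from the 4 MHC class II genes (percent). Symbols are libraries, the line pools them and the dashed line is the 1.5% limit. Pooled *Dnajc7* passes from 1837 to 658 CPM at 0.75%, below the limit, and pooled *Ms4a1* reaches 1089 CPM from 0.5 to 0.75%.

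The class II share was also compared between libraries and with background. Its median in the cells of the rule was 0.357%, 0.315% and 0.155%, and in T and NK cells 0.264%, 0.247% and 0.0887%. Cells under 0.25% made up 22.5%, 37.4% and 68.6% of the cells of the rule. In both cell types CSD replicate 1 had the lowest values, and the 4 genes with their accessory genes summed to 12423, 12230 and 5714 CPM in empty droplets. The part of free RNA in the class II ranges was not tested, and mature B cells had medians of 2.77%, 2.97% and 2.81%.

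Many of the cells were dividing. A cell was counted as dividing with at least 2 UMIs and 0.1% of UMIs in 24 genes of the G2 and M phases. This held for 30, 44 and 34 cells, or 21.7% (exact 95% interval 15.2 to 29.6), 27.0% (20.3 to 34.5) and 21.8% (15.6 to 29.1). The intervals of the libraries overlapped. Mature B cells reached 7.89%, 11.04% and 8.73% and T and NK cells 6.80%, 10.1% and 8.54%. Thinned to 500 UMIs, the shares were 10.1%, 17.2% and 14.1% in the cells of the rule, 0.658%, 2.60% and 1.59% in mature B cells and 0.680%, 3.80% and 2.51% in T and NK cells. The share of dividing cells was thus higher than in mature B or T and NK cells in every library, at full and at equal depth. It was not particular to these cells, since 4, 5 and 10 pro-B cells were dividing, or 20%, 35.7% and 32.3% (15%, 14.3% and 12.9% at 500 UMIs), with overlapping intervals. Of the 457 cells, 217 held no UMI of the 24 genes, 131 lay between 0.05 and 0.2% and 60 had 10 or more such UMIs.

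Dividing cells (108 cells, median 3525.5 UMIs) and the others (median 1438 UMIs) differed in genes that did not define them. *Rrm2* and *Pcna*, which act in DNA synthesis, averaged 401 ± 40.9 and 277 ± 30.6 CPM (SD, n = 3 libraries) in dividing cells and 13.5 ± 8.32 and 36.5 ± 3.65 CPM in the others. *Ly6d* averaged 1002 ± 165 CPM in dividing and 3472 ± 42.0 CPM in other cells, *Dnajc7* 1209 ± 28.3 and 2478 ± 102 CPM, *Ebf1* 1563 ± 68.5 and 2989 ± 58.6 CPM, and *Cd79a* 1293 ± 70.4 and 2387 ± 100 CPM. *Ms4a1* averaged 88.3 ± 53.8 and 619 ± 170 CPM and *Spib* 157 ± 30.7 and 339 ± 89.0 CPM. For these 6 genes the 3 values of dividing cells all lay below the 3 values of the others. The rule itself chose cells by *Cd79a*, so its values here are a description only. CPM is a share of a cell's UMIs, so a lower share in deeper cells need not be a lower number of molecules.

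*Rag1* was 62.7, 21.8 and 25.5 CPM in dividing cells (14 UMIs) and 83.6, 93.6 and 71.0 CPM in the others (50 UMIs). For *Rag1* too the 3 values of dividing cells lay below the 3 others. *Rag2* rested on fewer UMIs and did not keep 1 direction over the libraries. It stood at 8.95, 21.8 and 33.9 CPM in dividing cells (9 UMIs) and at 15.7, 13.4 and 5.46 CPM in the others (7 UMIs). *Il7r*, the growth factor receptor, was higher in dividing cells within each library, at 233, 179.6 and 339 CPM against 178, 147 and 289.5 CPM, although the libraries' values overlapped. *Sox4* averaged 424 ± 50.2 and 409 ± 101 CPM and did not keep 1 direction over the libraries. *Vpreb3* averaged 3161 ± 489 and 4074 ± 304 CPM and was lower in dividing cells within each library, though the libraries' values came close at 3724 CPM in dividing cells of CSD replicate 1 and 3742 CPM in the others of HC replicate 2.

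**Figure D3:**
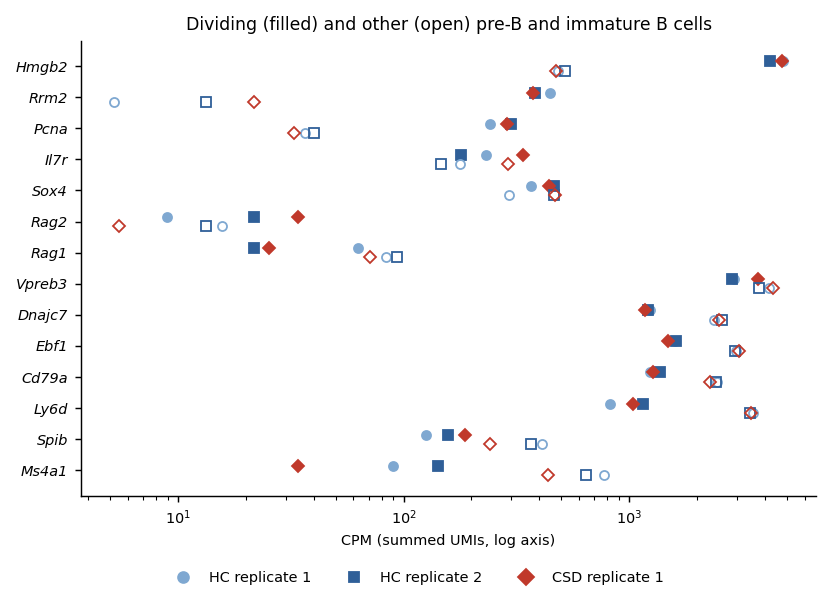
Level of 14 genes (CPM of summed UMIs, log axis) in dividing (filled) and other (open) pre-B and immature B cells; each symbol is 1 library. *Hmgb2*, *Rrm2* and *Pcna* lie higher in dividing cells, *Il7r* and *Sox4* overlap, and *Dnajc7*, *Ebf1*, *Cd79a*, *Ly6d*, *Spib* and *Ms4a1* lie lower, *Ly6d* at 1002 against 3472 CPM on average.

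The recombinase, *Ms4a1* and division were compared in single cells. *Rag1* or *Rag2* was detected in 68 cells (23, 28 and 17), *Ms4a1* in 157 cells (59, 58 and 40) and division in 108 cells. A RAG UMI and an *Ms4a1* UMI met in 13 cells, a RAG UMI and division in 18 cells, and *Ms4a1* and division in 19 cells. In 172 cells none of these was seen, and these were shallow, with a median of 1299 UMIs. At this depth the absence of a RAG UMI does not mark a cell as without RAG. *Ms4a1* UMIs occurred in 4.08%, 6.33% and 1.01% of T and NK cells against 42.8%, 35.6% and 25.6% of the cells of the rule.

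Transcripts of other cell types were present throughout. If every UMI of the neutrophil genes *S100a8* and *S100a9* were free RNA, the free share of the summed UMIs would be 35.7%, 34.0% and 24.8%. The 9 neutrophil genes, led by *S100a8*, summed to 40448, 46969 and 44029 CPM. The 10 macrophage genes, led by *Lyz2*, summed to 8375, 6661 and 5706 CPM, and 7 erythroid genes, led by *Hbb-bs*, to 1834, 3347 and 4895 CPM. The T and NK list summed to 158, 265 and 133 CPM, led by *Nkg7*, with *Prf1* at 0. The 6 plasma cell genes, led by *Mzb1*, summed to 590, 642 and 568 CPM, and plasmacytoid dendritic cell genes, led by *Bst2* and with *Pacsin1* at 0, to 158, 105 and 120 CPM. In single cells, markers of neutrophils, T and NK cells, macrophages and erythroid cells together made up over 10% of UMIs in 27 cells, 18 of them in HC replicate 2. Scrublet, which scores likely doublets, marked 23 of the cells, and its marks were used as an alternative only.

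The first question between conditions was whether the number of these cells differed with stress. They made up 5.31% (exact 95% interval 4.48 to 6.24), 9.58% (8.22 to 11.1) and 5.66% (4.83 to 6.59) of all cells. CSD was 1.78 percentage points below the HC mean of 7.44%, within the SD of 3.02 points between the HC libraries. Without HC replicate 1 the difference was -3.92 points and without HC replicate 2 it was 0.351 points, so the direction rested on HC replicate 2. The 3 ways to set 1 library against 2 allow an exact permutation p no lower than 0.333, and the shares are given without a test. Cells in which *S100a8* and *S100a9* made up at least 10% of UMIs, a neutrophil gate, were 21.9%, 18.7% and 39.6% of the libraries. Outside that gate the shares were 6.80%, 11.8% and 9.37%, with CSD between the HC libraries.

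The share was also taken within the B lineage. Of the cells in the Cd79 gate, pre-B and immature B cells made up 44.5% (38.9 to 50.2), 49.2% (43.7 to 54.8) and 49.8% (44.2 to 55.5). CSD lay 2.96 points above the HC mean of 46.9%, less than the SD of 3.34 points. Pro-B cells made up 6.45%, 4.23% and 9.90% and mature B cells 49.0%, 46.5% and 40.3%, with CSD beyond both HC libraries for each. The difference was 4.56 points for pro-B cells against an SD of 1.57 points, and -7.52 points for mature B cells against an SD of 1.77 points, while the exact intervals of the libraries overlapped. The share of dividing cells differed by -2.57 points between CSD and HC, within the spread of the HC libraries, and by 0.441 points at 500 UMIs per cell.

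**Figure D4:**
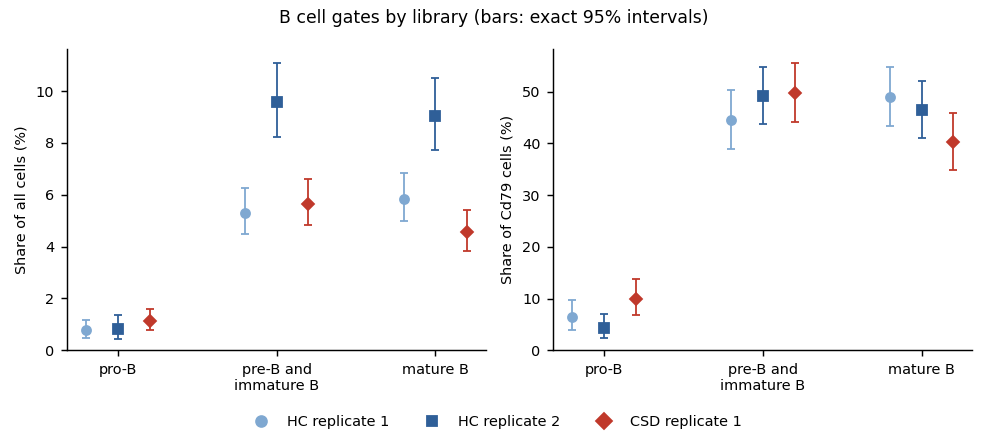
Share of all cells (left) and of Cd79 cells (right) in the pro-B, pre-B and immature B, and mature B gates, in percent on axes from 0. Points are libraries and bars are exact Clopper-Pearson 95% intervals; HC replicate 2 lies highest for pre-B and immature B cells on the left at 9.58%, and the 3 libraries overlap on the right.

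The second question was which genes differed between CSD and HC within these cells. UMIs summed per library were tested with edgeR's quasi-likelihood test on 1695 genes seen in over 15% of the cells, with Benjamini-Hochberg adjustment over all of them. Only the HC pools estimate the spread (residual degrees of freedom: 1), and for CSD the same spread had to be assumed. No gene passed an adjusted p under 0.05 (0% called). At an unadjusted p under 0.05 there were 61 genes (3.6%), 30 higher (1.77%) and 31 lower (1.83%) in CSD. DESeq2 called 1 gene, *Mgp* (0.059%), and found 4 genes at an unadjusted p under 0.05 (0.236%). With no filter on the share of cells, edgeR called 18 of 12826 genes (0.14%). The median absolute log2 difference over genes was 0.195 between CSD and HC replicate 2, 0.219 between CSD and HC replicate 1, and 0.213 between the HC libraries, with 15, 32 and 30 genes past 2-fold, so CSD and HC replicate 2 were the closest pair.

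The edgeR log2 fold change, CSD over HC, was -0.08 for *Cd79a*, 0.10 for *Cd79b*, 0.21 for *Vpreb3* and 0.01 for *Dnajc7*. The rule chose cells by *Cd79a* and *Cd79b*, which limits how far these genes could differ. Over the alternatives the log2 ratio of CPM changed sign for *Dnajc7* under 4 of 14 and for *Cd79b* under 1, and that of *Vpreb3* fell to 0.050 after subtraction of the empty-droplet profile. *Rag1* was below the filter on cells and had a log2 ratio of -0.37 between CSD and the HC mean of CPM, which was -0.72 in cells of at least 1000 UMIs, -0.20 without HC replicate 1 and -0.062 at 500 UMIs per cell. Over B cell identity genes, 16 of 20 were tested. By unadjusted p under 0.05 there was 1 higher, *Cecr2* (log2 fold change 0.64), and 1 lower, *Ms4a1* (-0.75, SE 0.25), both with an adjusted p of 0.998 by edgeR. The median was 0.01 against -0.02 over all genes tested.

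*Ms4a1* at 521, 419 and 279 CPM had its lowest value in CSD, beyond the HC values, and so did *Fcmr*, the Fc receptor for IgM, at 205, 213 and 130 CPM (log2 fold change -0.69, adjusted p = 0.998 by edgeR). They belong to the maturation list, of which 9 of 19 genes were tested, with 3 above and 6 below both HC libraries and a median of -0.24. Over all genes tested, 32.9% lay above and 32.9% below both HC libraries. Mature B cells, which express both genes more, had *Ms4a1* at 1092, 1036 and 799 CPM, lowest in CSD, but *Fcmr* at 584, 759 and 647 CPM, with CSD between the HC libraries. Both genes were also lowest in CSD in empty droplets, *Ms4a1* at 54.0, 105 and 28.6 CPM and *Fcmr* at 29.6, 78.9 and 21.5 CPM, and in T and NK cells, and the part of free RNA in these differences was not tested.

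*Il7r*, at 198, 162 and 309 CPM, was higher in CSD than in both HC libraries (log2 fold change 0.79, SE 0.24, adjusted p = 0.998 by edgeR). Of 5 niche and homing genes tested it alone had an unadjusted p under 0.05, and the list's median was -0.14. Among 15 transcription factors tested, *Id3*, an inhibitor of E proteins, had the lowest p at 175, 164 and 93.0 CPM (log2 fold change -0.86, adjusted p = 0.998 by edgeR). *Id3* was also lowest in CSD in empty droplets, at 203, 183 and 87.6 CPM, and in T and NK cells, at 27.6, 52.7 and 15.3 CPM. *Bach2* (0.36), *Spib* (-0.40) and *Pax5* (-0.35) did not reach an unadjusted p under 0.05. The 3 recombination genes tested were *Hmgb1* (0.16), *Hmgb2* (0.00) and *Xrcc6* (0.29), and the list's median of 0.16 rested on them.

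Other pathways were described by counts, beside the 32.9% of all genes tested that lay above and the 32.9% that lay below both HC libraries. Of 8 receptor signalling genes tested, 0 had an unadjusted p under 0.05, with a median of -0.09. Of 40 interferon-stimulated genes, 7 were tested, 0 had an unadjusted p under 0.05, 4 lay above and 3 below both HC libraries, and the median was 0.05. *Ifitm3*, an antiviral membrane protein, had a log2 fold change of -0.19, its relative *Ifitm2* of 0.28 and *Ifi203* of 0.34. Of MHC class I genes, 9 of 15 were tested, 8 lay above both HC libraries, and the median was 0.17, with *H2-Q7* at 122, 122 and 193 CPM (0.65, adjusted p = 0.998 by edgeR). The 15 genes summed to 5195, 5157 and 5915 CPM. Their sum was also highest in CSD in pro-B cells (5419, 5937 and 6086 CPM) and in T and NK cells (8372, 8629 and 9466 CPM). In mature B cells (5403, 6024 and 5884 CPM) and neutrophils (2505, 3031 and 2653 CPM) CSD lay between the HC libraries. In empty droplets CSD was lowest (4330, 4738 and 3826 CPM). Of glucocorticoid-responsive genes 6 of 20 were tested, with a median of 0.06, 3 above and 1 below both HC libraries, and 1 at an unadjusted p under 0.05, which was *Il7r* again, while *Tsc22d3*, which encodes GILZ, was at -0.10. *Ddit4* and *Fkbp5*, below the filter and chosen after their values were seen, stood at 26.4, 56.3 and 93.0 CPM and at 3.30, 12.2 and 39.9 CPM. *Fkbp5* also stood highest in CSD in empty droplets, at 25.7, 26.3 and 69.7 CPM, and in T and NK cells, at 24.9, 42.2 and 74.4 CPM. The same held in mature B cells, at 23.8, 22.8 and 48.9 CPM, and in neutrophils, at 26.1, 17.9 and 49.1 CPM. The part of free RNA in the difference was not tested. Division genes had medians of 0.16 (G2 and M phases, 6 tested) and -0.03 (S phase, 4 tested), ribosomal protein genes 0.06 (18 tested) and immediate early genes -0.07 (13 tested), all with 0 genes at an unadjusted p under 0.05.

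Genes known from other cell types and genes of the rule were among those of low p, and are named here after their values were seen. *Mgp*, matrix Gla protein of fibroblasts and vessels, stood at 340, 537 and 43.2 CPM (log2 fold change -3.35, SE 0.43, adjusted p = 0.387 by edgeR). It stood at 238, 285 and 35.0 CPM in T and NK cells, 337, 390 and 35.6 CPM in neutrophils and 1686, 1353 and 572 CPM in empty droplets. *Hbb-bs*, a beta globin, had a log2 fold change of 0.93, and all 4 erythroid genes tested had an unadjusted p under 0.05 with a median of 0.91. The erythroid list summed to 5305, 14567 and 28845 CPM in empty droplets and to 1933, 3471 and 5157 CPM in neutrophils. The log2 fold changes of *H2-Ab1* (-0.92), *H2-Eb1* (-0.72), *H2-Aa* (-0.60) and *Cd74* (-0.58) are a description with no test, since the rule chose cells by these 4 genes, which are among the 31 lower genes counted above. T and NK cells had *H2-Ab1* at 801, 849 and 455 CPM. In empty droplets themselves 1 of 6538 genes passed an adjusted p under 0.05 (0.0153%), *Ifitm1* (log2 fold change 2.27, adjusted p = 0.032 by edgeR), which the cells of the rule held at 62.7, 41.6 and 113 CPM.

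Other genes with p-values as low were on none of the lists. *Gng2*, a G protein gamma subunit, had a log2 fold change of 1.16 (adjusted p = 0.998 by edgeR) with 108, 111 and 134 CPM in T and NK cells. *Mtss1*, which binds actin and membranes, had 1.03 with 8.29, 26.4 and 13.1 CPM there, and *Arpc2*, a subunit of the ARP2/3 complex, -0.69, each with an adjusted p of 0.998 by edgeR. *Ifitm6*, a relative of *Ifitm3*, had 0.85 (adjusted p = 0.998 by edgeR) and was highest in CSD in neutrophils too, at 1658, 1809 and 3102 CPM.

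**Figure D5:**
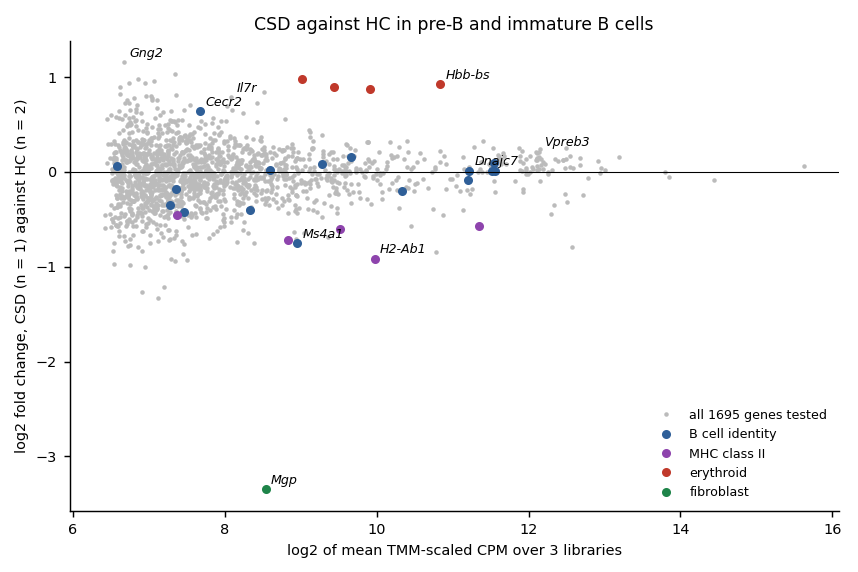
Log2 fold change of CSD (n = 1) over HC (n = 2) against the log2 mean TMM-scaled CPM for the 1695 genes tested in pre-B and immature B cells. Coloured points are B cell identity, MHC class II, erythroid and fibroblast genes; *Mgp* lies lowest at -3.35, the 4 erythroid genes near 0.9, and B cell identity genes between -0.75 and 0.64.

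The last comparison asked whether CSD differed from HC to another extent in these cells than in mature B cells of the same libraries. The interaction was tested with edgeR on 6 sums with library as a block, on 1689 genes outside the rule. It called 0 genes (0%), with 112 at an unadjusted p under 0.05 (6.63%), and DESeq2 called 0 genes, with 2 at an unadjusted p under 0.05 (0.118%). For *Mgp* the interaction was -0.31 (adjusted p = 0.966 by edgeR) and for *Hbb-bs* -0.13 (adjusted p = 0.853 by edgeR), with mature B cells at 258, 372 and 38.0 CPM of *Mgp*. For *Il7r* it was 2.55 with SE 1.20 (adjusted p = 0.766 by edgeR), where mature B cells stood at 11.9, 26.6 and 5.43 CPM, and for *Ms4a1* -0.34 with SE 0.21 (adjusted p = 0.791 by edgeR). For *Fcmr* it was -0.63 with SE 0.27 (adjusted p = 0.735 by edgeR), among the genes at an unadjusted p under 0.05.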

How the data were processed

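Single-cell RNA sequencing of meningeal cells used 10x Genomics Chromium 3' v2 chemistry. The authors deposited raw UMI counts made with Cell Ranger 2, on mm10 per the submitters' processing notes, as a matrix of 27998 genes by all barcodes, unfiltered and not normalized. No source used here names the annotation. The digit after a barcode's hyphen was read as the pool number in the labels.

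Cells and gates were set by the limits in the text. The members and gene lists were chosen with earlier results of these data known. Neutrophils for the background were cells with *S100a8* and *S100a9* at 10% or more of UMIs and no Cd79 UMI, a limit set after seeing the data. T and NK cells had at least 2 UMIs and 0.15% of UMIs in *Cd3d*, *Cd3e*, *Cd3g*, *Nkg7* and *Klrb1c* and no Cd79 UMI, so the levels of *Cd79a* and *Cd79b* there are 0 by choice. Empty droplets were barcodes of 1 to 100 UMIs. No doublets were removed.

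UMIs were summed per library and gate. CPM divides by all UMIs of the gate, while fold changes come from edgeR 4.0.16 (R 4.3.3; glmQLFit, glmQLFTest, TMM, two-sided) on genes in over 15% of the cells (Benjamini-Hochberg, threshold 0.05). Since the pools are the replicates, the spread behind the p-values comes from the 2 HC pools. edgeR draws each gene's spread toward that of the other genes tested. For the interaction it is the spread of the difference between gates. Empty droplets were tested on genes with at least 10 UMIs in 2 or more libraries. Shares carry exact Clopper-Pearson 95% intervals. The scripts were tested on simulated data. Python 3.11.15, scipy 1.17.1 and scanpy 1.11.5 (Scrublet) were used, and DESeq2 1.42.0 as an alternative. The alternatives were stricter or looser limits of the rule, at least 1000 UMIs, under 5% mitochondrial UMIs, leaving out Scrublet doublets, dividing cells, cells rich in other lineages' markers or each HC library, thinning to 500 UMIs, subtraction of the empty-droplet profile, other normalization, no filter on genes, and leaving out genes that differed in empty droplets.

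Genes named one by one are the markers, members with at least 20 UMIs of the lists for B cell identity, recombination, pre-B cell receptor, transcription factors, niche, maturation and survival, and the genes that led a gate against another. *Rag2* (16 UMIs) and *Cr2* (1 UMI) are named as well, below that number of UMIs. Genes past edgeR's test between CSD and HC or of the interaction in these cells would have been added, and none passed. Examples from the other lists and the genes of lowest p were chosen after their values were seen. Symbols *Ighm*, *Ighd*, *Igkc*, *Iglc1*, *Iglc2*, *Iglc3*, *Trac* and *Trbc2*, among others on the lists, were not analysed here. A symbol carried by more than 1 gene (56 symbols) was read by gene ID. Gene spans are from GENCODE on mm10 and promoters from RefSeq on GRCm38.p6.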

Additional observations from a re-analysis of the deposited data

How the results depend on the processing

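With 300917 to 408186 UMIs per library, low genes such as *Rag1* fell below the filter on cells, and the single CSD pool leaves 1 residual degree of freedom. The count of genes between CSD and HC was 0 in the text and remained 0 under 7 of 15 alternatives. It was 1 with at least 1000 UMIs per cell, with mitochondrial genes under 5%, without Scrublet doublets, without dividing cells and by DESeq2, the gene being *Mgp* each time. It was 3 with library sizes alone (*Mgp*, *Actb* and *Hbb-bs*), 7 with MHC class II under 1% (*Mgp*, *H2-Ab1*, *H2-Eb1* and 4 globin genes, where the class II genes are those the limit is set on, so their calls support nothing) and 18 of 12826 genes (0.14%) with no filter on the share of cells. *Mgp* passed under 8 alternatives. The interaction count of 0 became 5 with at least 1000 UMIs, 11 with MHC class II under 1%, 4 without dividing cells, 2 with library sizes alone, 1 with no filter (*Ccl17*) and 1 after subtraction of the empty-droplet profile (*S100a8*, whose own level set the subtraction), and stayed at 0 under 9 others. Neutrophil genes *S100a9* and *Retnlg* passed under 4 of them each. For other changes of count the cause was not tested.

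The log2 ratio of *Rag1*, -0.37 in the text, was below 0 under all 14 alternatives that gave a value and lay further from it than the spread of the HC libraries under 3: -0.72 with at least 1000 UMIs, -0.13 with Cd79 genes at 0.3% and 3 UMIs, and -0.0618 at 500 UMIs per cell. Without each HC library it was -0.51 to -0.20, and with no filter edgeR gave -0.34. The share of all cells moved between -3.92 points when HC replicate 1 was left out and 0.351 points when HC replicate 2 was, the share of Cd79 cells between 0.596 and 5.32 points, and the dividing share between -5.20 and 0.0557 points on the same omissions (0.441 points at 500 UMIs per cell). Leaving out an HC library leaves no residual degree of freedom, so gene counts were not recomputed. The limit of 2% on other lineages' markers left no cell and 10% was used in its place, chosen after seeing the data. No paired analysis of CSD against HC was possible because the pools came from different mice.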
